A study of Mus musculus with 2 samples.

Results

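The lysosomal genes described here are 49 genes chosen by symbol for the role of their products: the acid hydrolases and their helper proteins, the proteins of the lysosomal membrane, the receptors that sort enzymes to the lysosome, and subunits of the vacuolar proton pump. All 49 were found among the 22609 gene rows, and 47 of them were among the 12186 genes with at least 20 reads summed over both libraries. The data were Ago2 RNA immunoprecipitation (IP) profiles of TM4 cells, an established mouse Sertoli cell line, sequenced 48 h after transfection of the miR-471-5p mimic or a scramble control. Both cultures shared the DMEM medium with serum, the Ago2 antibody and the library protocol, and differed by the transfected RNA. Each condition had 1 library, so no difference below has a replicate check, and no test between conditions was possible.

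A lysosome is an acidic vesicle in which proteins, sugars and lipids delivered by endocytosis, phagocytosis or autophagy are broken down. Its enzymes are made in the endoplasmic reticulum, tagged with mannose 6-phosphate in the Golgi, carried by sorting receptors to endosomes, and activated at the low pH that the vacuolar H+-ATPase (V-ATPase) maintains. In the testis, Sertoli cells engulf dying germ cells and shed cytoplasm of maturing sperm, and phagosomes holding this cargo fuse with lysosomes, including during LC3-associated phagocytosis (LAP). Ago2 is the protein of the silencing complex that holds a miRNA on the mRNAs it pairs with, so an Ago2 IP recovers mRNAs bound to that complex together with other RNA that comes along.

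Read counts below are given with the mimic library first and the scramble library second. The first question was whether miR-471-5p has matching sites in the mRNAs of lysosomal genes, and the sequences are shown because pairing through the seed needs such a site. The mature miRNA from RefSeq is given 5′ to 3′ with its seed, nucleotides 2 to 8, in capitals. It lies on the minus strand of GRCm38.p6.
mmu-miR-471-5p (chrX:66792634-66792655): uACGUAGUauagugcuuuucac

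The 7mer-m8 match, the mRNA letters ACTACGT that pair with the whole seed, was absent from the longest annotated 3′-UTR of all 47 measured lysosomal genes in GENCODE M21 of GRCm38. It was present in 1.55% of the 10710 tested genes with a 3′-UTR. The shorter 6mer match CTACGT, which leaves out nucleotide 8 and is contained in the 7mer, was found in the 3′-UTR of 2 lysosomal genes (4.26%) and of 6.75% of all tested genes. These were Neu1, the sialidase, and Atp6ap2, an accessory protein of the V-ATPase. In Atp6ap2 the site is followed by A, which makes it the 7mer-A1 form, CTACGTA. The 6mer begins at position 423 of 1090 nucleotides of the 3′-UTR in Neu1 and at position 372 of 1176 in Atp6ap2. The sites are shown with the match in capitals and its coordinates in GRCm38.
Neu1 3′-UTR (chr17:34935254-34935259, plus strand): gataagcacacCTACGTgtgcacctttg
Atp6ap2 3′-UTR (chrX:12616245-12616251, plus strand): tcttgcacaggCTACGTAgtgcagctgtt

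In coding regions the 7mer-m8 match was found in 3 of 47 lysosomal genes (6.38%), against 4.50% of 10729 tested genes. The 3 were Psap, the precursor of the saposins that help enzymes reach membrane lipids, Igf2r, the large mannose 6-phosphate receptor, and Atp6v0a1, a membrane subunit of the V-ATPase. The sites are shown because they hold the whole seed match, again in capitals and with the coordinates of the capitals in GRCm38, each inside 1 coding exon.
Psap coding region (chr10:60295953-60295959, plus strand): catatgcaagaACTACGTggaccagtatt
Igf2r coding region (chr17:12688321-12688327, minus strand): catgaccaagtACTACGTccaagatggag
Atp6v0a1 coding region (chr11:101029180-101029186, plus strand): tgtgactggcgACTACGTgcacaagtctg
These 3 genes with a coding match lay close to equal in both libraries. Psap had 14805 and 13536 reads, a log2 ratio of mimic over scramble of 0.13. Igf2r had 1670 and 1594 reads, a log2 ratio of 0.07. Atp6v0a1 had 677 and 690, a log2 ratio of -0.03. After a regression on length and GC content, described below, Psap lay at 0.06 and Atp6v0a1 at 0.04. Igf2r, with a transcript of 8887 nucleotides, then lay at 0.36 and was no longer close to 0. Of the 2 genes with a 6mer in the 3′-UTR, Neu1 had 508 and 455 reads, and Atp6ap2, described with the proton pump below, had 1252 and 726. A match is a sequence description and not a measured binding site, and sites without a contiguous 6mer were not searched.

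Promoter sequences are shown because lysosomal genes as a class are known to share an E-box element bound by the transcription factor TFEB and its relatives. The core letters CACGTG, which read the same on both strands, were found in the RefSeq promoter windows (250 bases before to 50 after the start) of 14 of the 37 measured lysosomal genes that had one, or 37.8%. The share was 12.0% of 8651 tested genes with a window, and 7.15% of all 32851 windows. The longer form TCACGTGA, which contains the core, was found in 7 of the 37 genes (18.9%), against 2.29% of tested genes and 0.974% of all windows. Lamp1, which encodes the most familiar lysosomal membrane protein, had 4 copies of the core. Ctsa and Gla, the genes with the highest ratios below, had 2 each, and so did Mcoln1, which was also at least 1.5-fold higher. Cd63, Npc2 and Atp6ap2, the other genes at least 1.5-fold higher, had 0. Ctsa and Lgmn each also had another window without the core, and were counted among the 14. In the windows of Lamp1, Ctsa and Gla shown here, from GRCm38.p6 and written along the gene's strand, the core is in capitals.
Lamp1 (chr8:13158911-13159210, plus strand): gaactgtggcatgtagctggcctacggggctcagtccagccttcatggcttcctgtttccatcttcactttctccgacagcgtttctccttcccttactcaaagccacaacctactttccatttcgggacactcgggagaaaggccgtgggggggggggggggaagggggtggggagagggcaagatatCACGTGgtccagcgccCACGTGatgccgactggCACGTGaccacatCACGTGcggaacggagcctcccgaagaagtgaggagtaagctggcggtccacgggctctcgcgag
Ctsa (chr2:164833523-164833822, plus strand): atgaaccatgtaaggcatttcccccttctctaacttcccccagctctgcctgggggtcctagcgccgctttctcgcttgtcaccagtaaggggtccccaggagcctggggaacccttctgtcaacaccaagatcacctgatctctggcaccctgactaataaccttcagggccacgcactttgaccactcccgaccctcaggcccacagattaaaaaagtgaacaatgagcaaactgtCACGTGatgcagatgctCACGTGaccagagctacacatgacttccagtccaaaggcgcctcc
Gla (chrX:134600956-134601255, minus strand): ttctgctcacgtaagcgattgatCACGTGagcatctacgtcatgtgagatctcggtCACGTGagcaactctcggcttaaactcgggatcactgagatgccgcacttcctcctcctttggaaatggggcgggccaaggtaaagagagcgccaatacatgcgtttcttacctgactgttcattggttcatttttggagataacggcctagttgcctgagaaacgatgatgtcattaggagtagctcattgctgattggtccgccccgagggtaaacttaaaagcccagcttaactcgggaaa
The 14 lysosomal genes with the core had a median log2 ratio of 0.26, and the 23 others with a window had 0.30. No binding was measured here, and no match says only that these letters are not in the window.

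The libraries held 18628310 and 18717225 reads on genes, of which lysosomal genes took 0.615% and 0.508%. The detection floor was set at 3 reads, or 0.161 CPM (counts scaled to a common library total) with either library. The identity of the cells was checked with Sertoli markers, which summed to 95.04 and 83.35 CPM over 9 genes. Sox9 had 1228 and 1070 reads and Gata4 had 341 and 365, but Fshr was at 0 in both libraries and Amh had 5 reads in each, so some defining Sertoli genes were absent or nearly so. Macrophage markers, relevant because macrophages are rich in lysosomes, summed to 1.71 and 2.36 CPM over 9 genes, 4 of which, Emr1, Ptprc, Itgam and Tyrobp, were at 0 in both. Leydig markers summed to 4.50 and 4.71 CPM over 5 genes and germ cell markers to 6.75 and 7.61 CPM over 5 genes. Peritubular markers summed to 3914 and 5453 CPM, nearly all from Acta2, while Myh11 and Cnn1 were below 1 CPM. The part of these differences in the lysosomal ratios was not tested. As no library of RNA before the pull-down was analysed here, the amount of an mRNA and its association with Ago2 cannot be told apart, nor can fewer cells expressing a gene and less RNA per cell.

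Levels were compared between genes as CPM per kilobase of transcript. In the scramble library the highest of the lysosomal genes was Psap with 273 CPM per kilobase, at percentile 99.0 of the tested genes with a known length. It was followed by Laptm4a, a small membrane protein of late endosomes and lysosomes, with 198, M6pr, the small mannose 6-phosphate receptor, with 196, Atp6v0d1 with 138 and Atp6v1b2 with 115. The lowest measured were Sgsh with 1.25 CPM per kilobase and Scarb2 with 2.05. Ctsc and Ctss, 2 cysteine proteases best known from immune cells, had 0 reads in both libraries, which allows up to 0.161 CPM. All other lysosomal genes had at least 80 reads in each library.

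**Figure D1:**
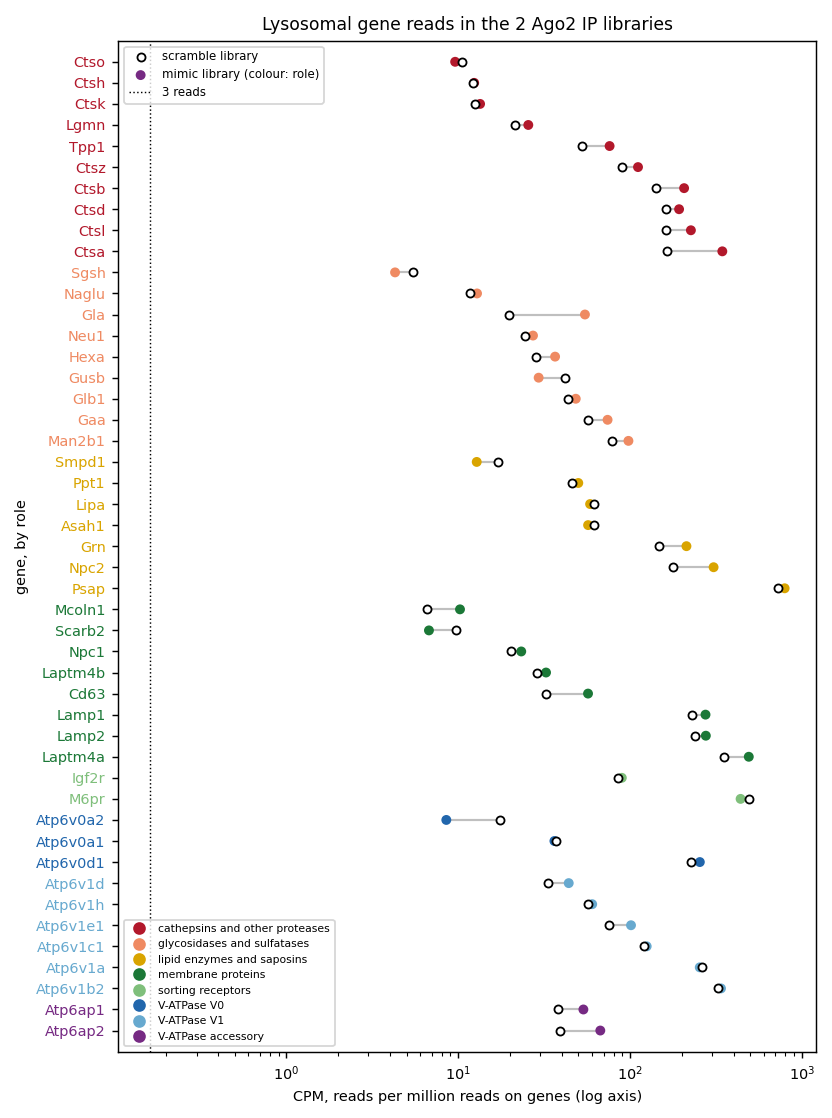
CPM (log axis) of the 47 measured lysosomal genes in the scramble library (open circles) and the mimic library (filled, coloured by role), with 1 library each; the dotted line marks 3 reads. Levels run from 4.28 CPM for Sgsh to 793 CPM for Psap in the mimic library, and the widest gaps are those of Gla, Ctsa and Atp6v0a2.

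The comparison of the mimic with the scramble library asked whether the Ago2-bound mRNA of lysosomal genes differed after the mimic. Most lysosomal genes were slightly higher in the mimic library. Log2 ratios were above 0 in 36 of the 47 genes (76.6%) and below 0 in 11, against 49.9% above 0 among all tested genes. The median log2 ratio was 0.18 with quartiles of 0.04 and 0.45, and that of all tested genes was -0.0006 with quartiles of -0.27 and 0.31. The share of large ratios on the high side was near that of all tested genes. At least 1.5-fold higher were 6 of the 47 (12.8%), against 11.7% of all tested genes, and at least 1.5-fold lower was 1 (2.13%), against 9.11%. At least 2-fold higher were Ctsa and Gla (4.26%, against 3.96%), and at least 2-fold lower was Atp6v0a2 (2.13%, against 3.08%). The interval given with each ratio below was derived from the share of a gene's reads that came from the mimic, by the exact Clopper-Pearson method at 95%, and covers counting error only. It lay wholly above 0 in 26 lysosomal genes (55.3%, against 31.5% of all tested genes) and wholly below 0 in 6 (12.8%, against 32.5%).

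**Figure D2:**
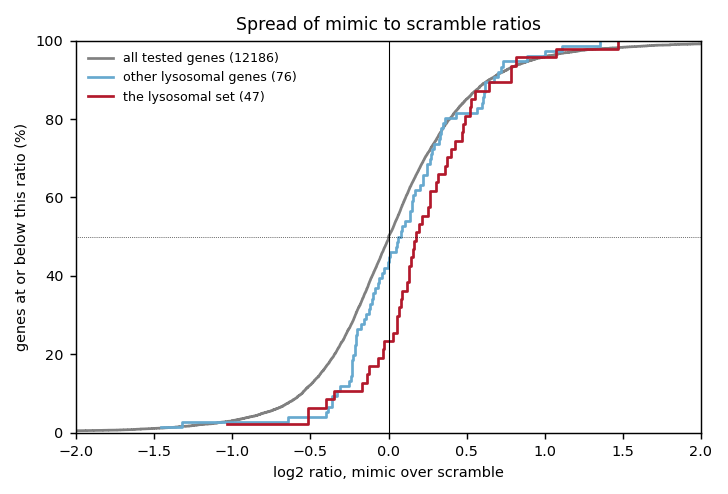
Percentage of genes at or below each log2 ratio of mimic to scramble, for all 12186 tested genes (grey), the 47 measured lysosomal genes (red) and 76 other lysosomal genes (blue); ratios beyond 2 in size lie outside the axis. The red curve lies to the right of the grey one through the middle of its range, with medians of 0.18 and -0.0006, and meets it near the upper end.

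Among the proteases, cathepsins and related enzymes that cut proteins in the lysosome lumen, 10 of 12 were measured and 9 of the 10 were higher with the mimic, at a median log2 ratio of 0.28. A regression on transcript length and GC content is described below. After it 6 of the 10 proteases were above 0, against 5113 of all 10728 genes in it, and the median of the 10 was 0.11. Ctsa, the carboxypeptidase that also holds beta-galactosidase and sialidase in a stable complex, was the highest, with 6422 and 3057 reads. Its log2 ratio was 1.07 (95% interval 1.01 to 1.13), a 2.10-fold difference. Its partners in that complex, Glb1 and Neu1, did not share it: Glb1 had 901 and 815 reads, a log2 ratio of 0.14 (0.006 to 0.28), and Neu1 had 0.16 (-0.03 to 0.34).

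The annotated exons of Ctsa overlap those of Neurl2 and Pltp on the opposite strand over 6.87% and 10.5% of their length. Neurl2 had 126 and 97 reads and Pltp 239 and 277, both far below Ctsa, and the part of the overlap in its ratio was not tested. Ctsb, a cysteine protease, had 3848 and 2625 reads, a log2 ratio of 0.55 (0.48 to 0.62) that lay just under 1.5-fold. Its exons overlap those of Fdft1 over 12.8% of their length, and Fdft1 had 605 and 600 reads. Tpp1, which removes tripeptides from protein ends, had 1418 and 981 reads, a log2 ratio of 0.53 (0.41 to 0.65). Ctsl, another abundant cysteine protease, had 4215 and 3038 reads, a log2 ratio of 0.47 (0.40 to 0.54). An antisense gene, Gm47123, that is not among the gene rows covers 26.8% of its annotated exons. A processed pseudogene on the same strand, Gm49230, also not among the gene rows, covers 6.09% of them.

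At the other end of the proteases, Ctsd, the main aspartic protease, had 3598 and 3023 reads (log2 ratio 0.25, interval 0.18 to 0.32). After the regression on length and GC content Ctsd lay at 0.09, below that interval. GENCODE M21 places a gene model, Gm49369, over 34.4% of the exons of Ctsd, and that model is not among the gene rows here. Ctsz, a carboxypeptidase, and Lgmn, which cuts after asparagine, had log2 ratios of 0.30 and 0.26, but after the regression on length and GC content these were -0.015 and 0.13. The intervals of the 3 lowest reached across 0. Ctsk, known for digesting bone collagen, had 250 and 235 reads (log2 ratio 0.09), Ctsh had 231 and 226 (log2 ratio 0.03, interval -0.24 to 0.30), and Ctso had 179 and 197 (log2 ratio -0.14, interval -0.44 to 0.16).

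Of the 9 enzymes that remove sugars or sulfate groups, 7 were higher with the mimic, at a median log2 ratio of 0.16. Gla, the alpha-galactosidase that is deficient in Fabry disease, had the highest ratio of all lysosomal genes. It had 1019 and 368 reads, a log2 ratio of 1.47 (1.30 to 1.64), at percentile 98.2 of all tested genes. The next was Gaa, which degrades glycogen, with 1380 and 1064 reads and a log2 ratio of 0.37 (0.26 to 0.49), so Gla stood apart from the other sugar-cleaving enzymes. Hexa had 683 and 531 reads and Man2b1 1825 and 1465, with log2 ratios of 0.36 and 0.32.

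In the opposite direction, Gusb, the beta-glucuronidase, had 548 and 782 reads, a log2 ratio of -0.51 (-0.67 to -0.35). Sgsh, which removes sulfate from heparan sulfate, had 80 and 102 reads, a log2 ratio of -0.35 whose interval of -0.79 to 0.09 reached across 0. Naglu, which acts in the same pathway, had 240 and 219 reads (log2 ratio 0.13, interval -0.14 to 0.40). Thus, of these 9 enzymes, Gusb was the one lower in the mimic library by more than counting error.

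The lipid enzymes and their helper proteins were divided, with 4 of 7 higher in the mimic library. Npc2, the soluble protein that carries cholesterol out of the lysosome lumen, had 5713 and 3312 reads, a log2 ratio of 0.79 (0.72 to 0.85). Npc1, the membrane protein that receives the cholesterol, had 434 and 379 reads and a log2 ratio of 0.19 (-0.007 to 0.40), so the counting intervals of the 2 partners did not meet. Grn, which encodes progranulin, had 3971 and 2762 reads, a log2 ratio of 0.52 (0.45 to 0.59).

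Among the lipid enzymes and their helpers, the counting intervals of Smpd1 and Asah1 lay wholly below 0. Smpd1, the acid sphingomyelinase, had 239 and 316 reads, a log2 ratio of -0.40 (-0.65 to -0.16). Asah1, the acid ceramidase that acts after it, had 1063 and 1157 reads, a log2 ratio of -0.12 (-0.24 to -0.0015). The ratio of Asah1 went from -0.123 to -0.115 with total gene counts as the scaling, and to -0.105 with upper-quartile factors. Whether its interval clears 0 therefore depends on the scaling. Lipa, which splits cholesterol esters, had 1092 and 1143 reads (log2 ratio -0.07, interval -0.19 to 0.05), and Ppt1, which removes palmitate from proteins, had 932 and 859 (log2 ratio 0.12, interval -0.02 to 0.25), with exons that overlap the abundant Cap1 over 3.51% of their length.

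Among the membrane proteins 7 of 8 were higher with the mimic, at a median log2 ratio of 0.24. Cd63, a tetraspanin of late endosomes and lysosomes, had 1062 and 603 reads, a log2 ratio of 0.82 (0.67 to 0.96). A pseudogene copy, Cd63-ps, exists, and reads that align equally well to both are not counted on either, so the level of Cd63 is uncertain. Mcoln1, the calcium channel of the lysosomal membrane, had 191 and 122 reads, a log2 ratio of 0.65 (0.31 to 0.99), an interval wide enough to reach well below 1.5-fold. Laptm4a had 9156 and 6564 reads (log2 ratio 0.48, interval 0.43 to 0.53), while its relative Laptm4b had 605 and 539 (log2 ratio 0.17, interval -0.004 to 0.34).

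The major structural glycoproteins differed little between the libraries. Lamp1 had 5127 and 4271 reads and Lamp2 5149 and 4430, with log2 ratios of 0.26 (0.20 to 0.32) and 0.22 (0.16 to 0.27), so the intervals of the pair overlapped. Scarb2, which carries glucocerebrosidase to the lysosome, was the membrane protein gene with the lowest ratio, with 126 and 180 reads and a log2 ratio of -0.52 (-0.86 to -0.18). Of the mannose 6-phosphate receptors, M6pr had 8204 and 9221 reads, a log2 ratio of -0.17 (-0.21 to -0.13), and Igf2r had 0.07 (-0.03 to 0.17). M6pr also has a pseudogene copy, M6pr-ps, and is uncertain for the same reason.

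The V-ATPase consists of a membrane sector, V0, through which protons pass, a cytosolic sector, V1, which hydrolyses ATP, and accessory proteins that help it assemble. In the V0 sector the subunits differed widely. Atp6v0a2, an isoform of the large membrane subunit, had 159 and 325 reads, a log2 ratio of -1.03 (-1.31 to -0.75), the lowest of all lysosomal genes and at percentile 2.81 of all tested genes. Its exons overlap an antisense gene over 9.86% of their length, and that gene is not among the gene rows. The other isoform of the same subunit, Atp6v0a1, was at -0.03 (-0.18 to 0.13), and Atp6v0d1, which joins the sectors, had 4751 and 4203 reads (log2 ratio 0.18, interval 0.12 to 0.24). After the regression on length and GC content Atp6v0d1 lay at -0.05, on the other side of 0 and outside that interval.

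The 6 measured V1 subunits lay between -0.03 and 0.43. The catalytic subunit Atp6v1a had 4746 and 4858 reads (log2 ratio -0.03, interval -0.09 to 0.02), and its partner in the hexamer, Atp6v1b2, had 6309 and 6079 (log2 ratio 0.05, interval 0.002 to 0.10). Atp6v1c1 had 2331 and 2247 reads and Atp6v1h 1123 and 1060, with log2 ratios of 0.05 and 0.08 and intervals across 0. Higher among them were the stalk subunits Atp6v1e1, with 1889 and 1404 reads and a log2 ratio of 0.43 (0.33 to 0.53), and Atp6v1d, with 820 and 621 reads and 0.40 (0.25 to 0.55). After the regression on length and GC content Atp6v1d lay at 0.52. Atp6v1e1, with a transcript of 1312 nucleotides, then lay at 0.16, outside its interval and near Atp6v1a at 0.12. Both accessory proteins were higher. Atp6ap2 had a log2 ratio of 0.79 (0.65 to 0.92) and Atp6ap1, with 998 and 712 reads, had 0.49 (0.35 to 0.63).

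**Figure D3:**
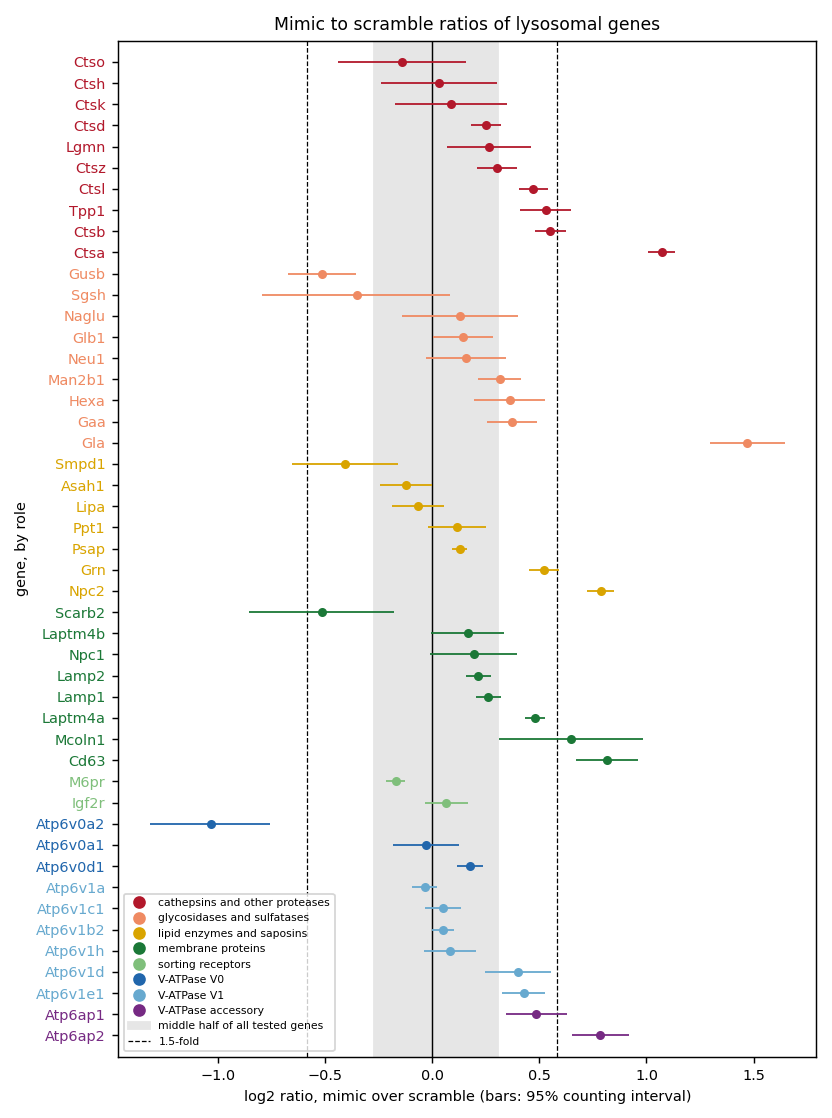
Log2 ratio of mimic to scramble for each of the 47 measured lysosomal genes, grouped and coloured by role, with bars for the 95% counting interval (1 library per condition); the grey band spans the quartiles of all tested genes, and dashed lines mark 1.5-fold. Ctsa, Gla, Npc2, Cd63, Mcoln1 and Atp6ap2 lie right of the upper dashed line and Atp6v0a2 alone lies left of the lower one.

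Transcript length moved with the ratio over all genes. Tested genes were divided by transcript length into 5 classes of nearly equal size. In the shortest class, up to 1767 nucleotides, the median log2 ratio of all genes was 0.33, and it stepped down through 0.08, -0.03 and -0.12 to -0.23 in the longest class, from 4888 nucleotides. The median length was 2474 nucleotides for the lysosomal genes and 3016 for all tested genes. From the shortest to the longest class, 2 of 6, 18 of 21, 4 of 8, 7 of 9 and 2 of 3 lysosomal genes lay above the median of all genes in their class. After a regression of the ratio on length and GC content over 10728 genes, which took up 14.9% of the variance, the median of the lysosomal genes was 0.09 and that of all genes -0.02. Above 0 after the regression were 32 of the 47 lysosomal genes, against 5113 of the 10728 genes. Of the genes that lay on the other side of 0 after it, Ctsz and Atp6v0d1 had a counting interval wholly above 0 before it, and Ctsh, Ctsk, Naglu, Atp6v0a1, Atp6v1a and Atp6v1c1 had one that reached across 0. Ctsl, Hexa, Grn, Lamp1 and Laptm4a lay at 0.38, 0.19, 0.40, 0.17 and 0.33 after the regression, below their counting intervals. Ctsb, Igf2r and Atp6v1a lay above theirs, at 0.71, 0.36 and 0.12.

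After the regression 6 lysosomal genes were at least 1.5-fold higher and 1 was at least 1.5-fold lower, against 8.90% and 8.04% of all genes in it, and 4 of the 6 were higher before it too. Cd63, with a transcript of 1063 nucleotides, went from 0.82 to 0.40, and Mcoln1 from 0.65 to 0.48, so both then lay under 1.5-fold. Ctsb and Tpp1, with 4743 and 3558 nucleotides, went to 0.71 and 0.62 and then lay above it. Ctsa at 0.98, Gla at 1.53, Npc2 at 0.82, Atp6ap2 at 0.77 and Atp6v0a2 at -0.86 kept their side of it. The hydrolases and their helpers together went from a median of 0.20 to 0.077 with 16 of 26 above 0, the membrane proteins and sorting receptors from 0.21 to 0.25, and the V-ATPase subunits from 0.08 to 0.05. Among the hydrolases, the sugar-cleaving enzymes went from 0.16 to 0.058 and the lipid enzymes and helpers from 0.12 to 0.062.

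**Figure D4:**
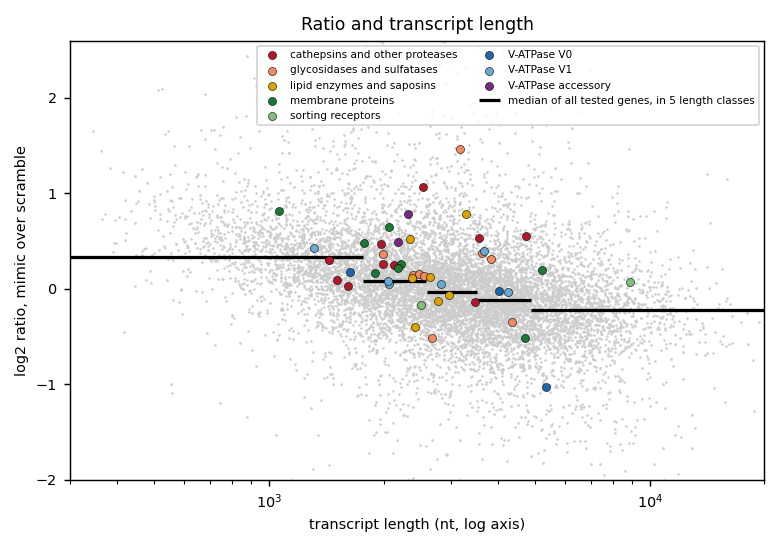
Log2 ratio of mimic to scramble against transcript length (log axis) for all tested genes with a coding transcript (grey points) and the lysosomal genes (coloured by role), with black bars for the median of all genes in each of 5 length classes; genes outside the axes are not drawn. The black bars step down from 0.33 to -0.23, and Gla and Ctsa lie far above the bar at their length.

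For a wider view of the same pathway, 87 further lysosomal genes were listed by function, of which 76 had at least 20 reads. Their median log2 ratio was 0.07, between those of the 47 lysosomal genes and of all tested genes. Above 0 were 43 of the 76 (56.6%, against 49.9% of all tested genes). At least 1.5-fold higher were 13 (17.1%, against 11.7% of all tested genes) and at least 1.5-fold lower were 3 (3.95%, against 9.11%). These shares were taken before the regression on length and GC content. After it, 41 of the 75 further genes in it were above 0, against 5113 of the 10728 genes. The median of the 75 was then 0.05, and that of all genes -0.02. The highest with at least 200 reads over both libraries was Gpr137b, a lysosomal membrane protein, with 2122 and 829 reads and a log2 ratio of 1.36 (1.24 to 1.47). Cln3, a membrane protein mutated in Batten disease, had 147 and 68 reads, a log2 ratio of 1.11 (0.69 to 1.55). The lysosomal phospholipase Pla2g15 had 2497 and 1504 reads and the cystine exporter Ctns 1231 and 758, with log2 ratios of 0.73 and 0.70. The sugar-cleaving enzyme Idua, with 212 and 140 reads, lay at 0.60, and the dipeptidyl peptidase Dpp7, with 204 and 134, at 0.61. After the regression on length and GC content Idua lay at 0.63 and Dpp7 at 0.39, under 1.5-fold.

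Lower were Lyst, which controls lysosome size and has a transcript of 13181 nucleotides, with 109 and 299 reads and a log2 ratio of -1.46 (-1.79 to -1.14), and Glb1l, with 96 and 150 reads and -0.64 (-1.03 to -0.27). The 9 measured further V-ATPase genes had a median of 0.56, and 8 of them were above 0. Their transcripts were short, with a median of 1789 nucleotides, and after the regression on length and GC content their median was 0.11, again with 8 above 0. The one below 0 was Atp6v0a4, an isoform of the large V0 subunit, with 20 and 50 reads and a log2 ratio of -1.32 (-2.15 to -0.55). Atp6v1g1 and Atp6v1f, small V1 subunits, had 836 and 523 reads and 506 and 329 reads, and Tcirg1, another isoform of the large V0 subunit, had 598 and 390. Their log2 ratios were 0.68, 0.62 and 0.62, and after the regression on length and GC content these were 0.35, 0.02 and 0.54, with transcripts of 1135, 703 and 3041 nucleotides. Atp6v0c, which encodes the proton-carrying ring, had 1 and 0 reads. It has annotated pseudogene copies, and reads placed in more than 1 location were not assigned to genes, so its count says little about its level.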

How the data were processed

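Ago2 IP libraries of TM4 cells, 1 per condition, were analysed from cells taken 48 h after transfection. As deposited, the values are raw counts of reads on each gene symbol, not normalized, with 5 summary rows that were left out of library sizes. Per the labels, the submitters' processing notes name CASAVA 1.8.2, TopHat2 2.0.8b, HTSeq and the build mm9. The annotation, filters and strand setting are not given in the sources used here. Genes on opposite strands that overlap may therefore have lost or shared reads.

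Ratios were computed from counts divided by TMM-scaled library sizes (edgeR 4.0.16, R 4.3.3), with factors of 1.0026 and 0.9974, and no value was added to the counts. The quasi-likelihood test of edgeR needs replicates, so no p-value is given. Intervals of 95% were computed with scipy 1.17.1 in Python 3.11.15, and the code was tested on simulated data. Genes with at least 20 reads over both libraries were compared. Lengths and sequences came from GENCODE M21 and RefSeq of GRCm38, matched by symbol, for all 49 lysosomal genes (transcripts) and 39 (promoters). The transcript was the complete coding one with the best support level. Coordinates are those of GRCm38, not of mm9. The genes, lists and rules were chosen with earlier results of these data known. Genes given in full were the 2 highest and 2 lowest of each role, those past 1.5-fold and the 5 most abundant per kilobase. Further lysosomal genes were named when past 1.5-fold with at least 200 reads, except for 1 that is not reported here, and Atp6v0a4, Atp6v0c and the genes overlapping lysosomal exons were named after their values were seen.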

Additional observations from a re-analysis of the deposited data

Results flagged for a closer look

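Reads aligned to more than one place made up 39.8% of all entries with the mimic and 35.6% with the scramble, and stood out because these reads enter no gene count. They bear on Cd63, M6pr and Atp6v0c, which have pseudogene copies, though copies of the lysosomal genes were looked for by symbol only. Which genes these reads belong to was not tested.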

How the results depend on the processing

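Total gene counts, DESeq2 1.42.0 size factors, upper-quartile factors, no count filter, at least 200 reads and a regression on mean count moved each median by less than 0.12 (the median arm of the counting intervals), and under each of them 6 lysosomal genes were at least 1.5-fold higher and 1 lower. Over all genes compared under these settings, the shares ran from 9.29% to 14.2% higher and from 7.01% to 12.3% lower. For single genes, 346 of 375 alternative values lay within the main counting interval, and the 29 outside it came from the regressions on length and GC content. Those regressions moved the median of the hydrolases and their helpers from 0.20 to 0.077, or to 0.071 with the transcript of longest coding region, a choice added after seeing the data. Under that choice 7 lysosomal genes were at least 1.5-fold higher, against 8.88% of all genes in the regression. With a 2-fold threshold 2 lysosomal genes were higher (4.26%, against 3.96% of all tested genes). By the counting interval alone 26 were higher (55.3%, against 31.5%) and 6 lower (12.8%, against 32.5%). In 3′-UTRs the count of 0 lysosomal genes with a 7mer-m8 match became 2 for the 6mer (4.26%, against 6.75% of tested genes). It became 1 for the 7mer-A1 (2.13%, against 1.48% of tested genes). In coding regions 3 became 8 for the 6mer (17.0%, against 16.6% of tested genes). That count became 0 for the 7mer-A1 and 0 for the 8mer, against 1.99% and 0.475% of tested genes. The promoter count of 14 became 7 with TCACGTGA (18.9%, against 2.29% of tested genes). With 1 library per condition, variation between cultures or pull-downs is unknown, and the counting intervals are narrower than any interval that would include it. No paired analysis was possible because each group holds 1 library.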
